A study of Mus musculus with 8 samples.

Results

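The transforming growth factor beta (TGF-beta) genes described here are 10 genes chosen by name: the ligands Tgfb1, Tgfb2 and Tgfb3, the receptors Tgfbr1 and Tgfbr2, the signal carrier Smad3, the repressor Skil, and the targets Tgfbi, Ccn2 and Id3. They were found by gene symbol in the platform's probe annotation, which gave 16 of the 25697 probes in the files and all 10 genes, of 16593 genes with a probe. Total RNA of 4 wild type and 4 Bgn knockout livers had been hybridised to Illumina bead arrays with a single label, 1 array per sample. Every sample came from a male aged 13 weeks on a C57BL/6 background. The labels number the replicates without saying that each is a separate animal, so p-values measure the spread between these samples, which may be technical. Bgn encodes biglycan, a proteoglycan of the extracellular matrix. The part of the gene removed, and whether the knockout acts in every cell, are not given in the sources used here.

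TGF-beta ligands are secreted in a latent form and held in the matrix, where small leucine-rich proteoglycans such as biglycan and decorin can bind them. An active ligand brings the type II receptor Tgfbr2 together with the type I receptor Tgfbr1, which phosphorylates Smad2 and Smad3. These join Smad4 and enter the nucleus, where they switch on targets such as Ccn2 and Tgfbi, while Skil and Smad7 hold the response back. In liver the pathway is best known for driving stellate cells to make scar matrix and for restraining hepatocyte growth.

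The arrays had median deposited intensities of 141 to 164 units and 11352 to 11910 detected probes, a probe being called detected at a detection p under 0.05. The deposited Bgn signal was 2901 to 4944 units in wild type livers and 169 to 203 in knockout livers, a log2 change of -5.86 (SE 0.14; limma adjusted p = 2.38e-10), and no other assignment of the 8 arrays to 2 groups gave a larger difference (exact two-sided permutation p = 0.0286, the smallest 70 assignments allow). Of the 8 hepatocyte markers, 7 passed the detection filter, with summed linear levels of 123846 to 128906 units per array. All such sums were taken after background correction and quantile normalization, so their units differ from the deposited ones. In each sum the brightest probes weigh most. Quantile normalization gives every array the same set of values, so sums led by very bright probes, such as the hepatocyte sums, are held close together. They do not measure hepatocyte content. Tat was detected on 2 arrays, and the Alb probe was dim (6.91 to 8.03 on the log2 scale). Skeletal muscle transcripts stood out on wild type replicate 4, Bgn knockout replicate 1 and Bgn knockout replicate 2: the 4 tested muscle markers summed to 17936, 5451 and 26109 units there and to 118 to 135 on the other arrays. Erythroid markers summed to 22561 to 30506 units in wild type and 13027 to 21918 in knockout livers, with 0 of 3 tested past the threshold, and 0 of 3 tested cholangiocyte and 0 of 3 tested lymphocyte markers passed.

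In this comparison none of the 10 tested probes of the set passed the threshold. A probe was tested if it was detected on at least 4 of the 8 arrays, which held for 10 of the 16 probes, from 9 genes. With limma and Benjamini-Hochberg adjustment over 11494 tested probes at 0.05, 0 rose and 0 fell, against 1.1% of all tested probes (127). At an unadjusted p under 0.05 there was 1 of the 10, against 13.3% of all tested probes, and for 0 of the 10 were the groups free of overlap, against 8.07% overall. Log2 changes of the 10, as knockout minus wild type, ran from -0.80 for Id3 to 0.77 for Ccn2. Their median was -0.067, beside 0.0050 over all tested probes, with 7 values below 0 and 3 above, where 50.9% of all tested probes were above 0. The remaining 6 probes were detected on 0 to 3 arrays and were not tested. All levels below are log2 intensities after background correction and quantile normalization, and since each probe binds with its own strength, no probe's level was set against another's. In whole tissue, fewer cells of a type and less RNA per cell cannot be told apart.

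**Figure D1:**
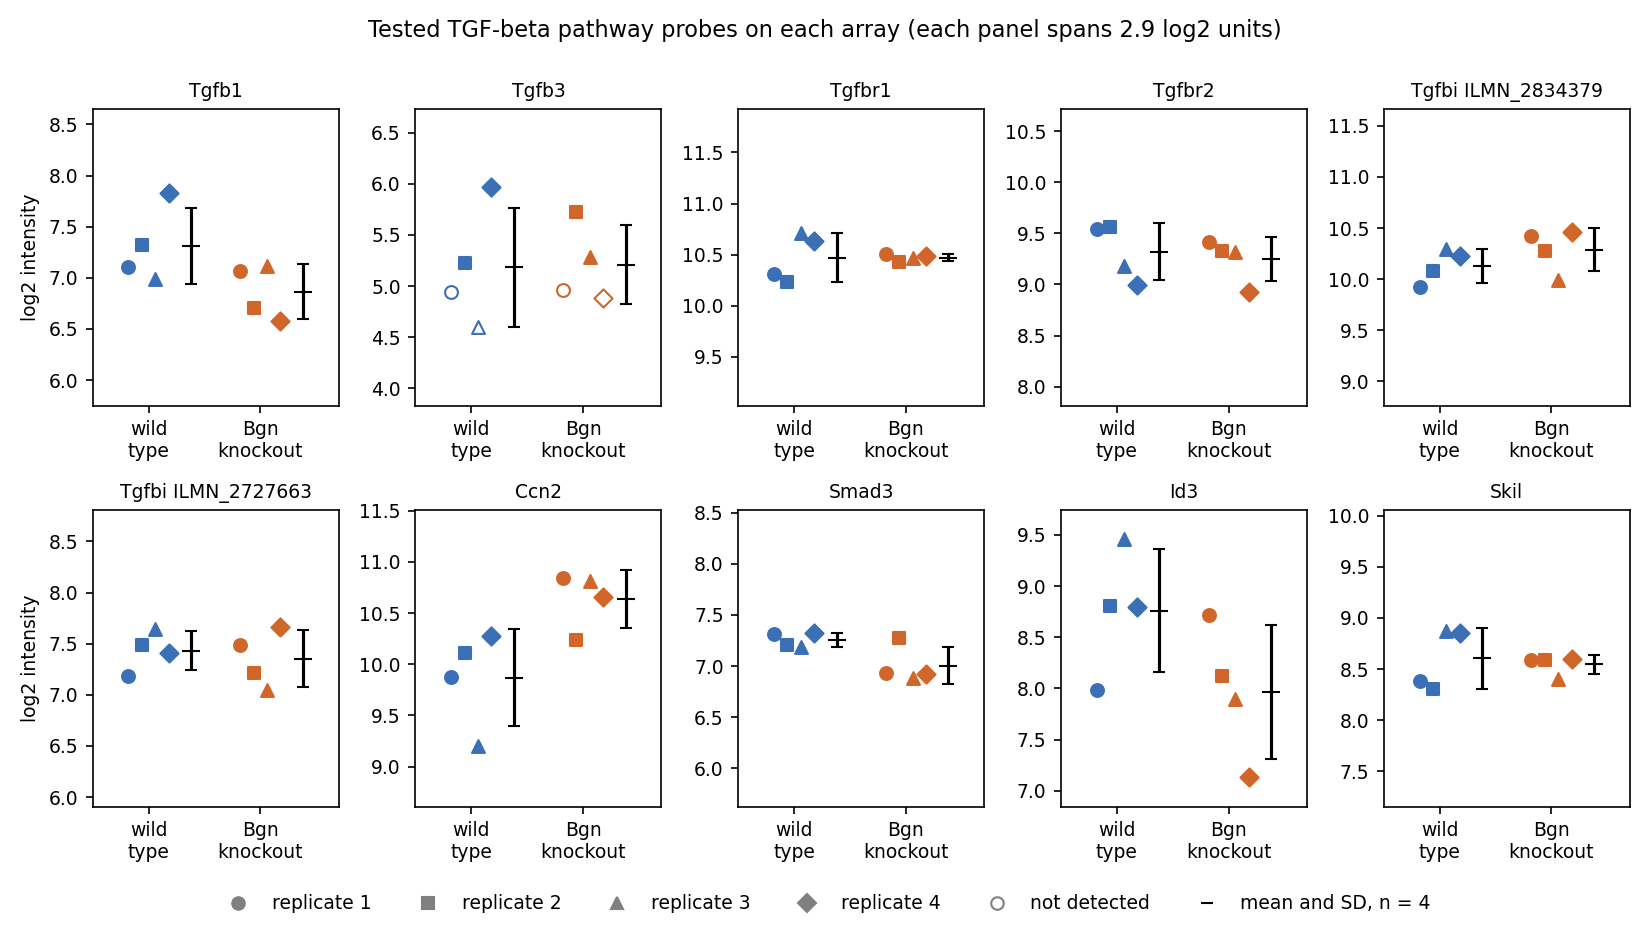
Log2 intensity (y axis) of the 10 tested probes in 4 wild type livers (blue) and 4 Bgn knockout livers (orange), one marker shape per replicate, open markers where the probe was not detected, and black bars for mean and SD. Ccn2 sits higher in all but 1 knockout liver, Id3 is spread widely in both groups, and the knockout values of Tgfbr1 lie within the wild type range.

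Of the ligands, Tgfb1 was measured on all arrays, Tgfb3 near the limit of detection, and Tgfb2 on none. Tgfb1 (probe ILMN_2711461), the form made most widely by immune cells, platelets and stellate cells, had levels of 7.11, 7.32, 6.99 and 7.83 in wild type livers and 7.07, 6.71, 7.11 and 6.57 in knockout livers. The highest value was wild type replicate 4, and the knockout arrays 1 and 3 lay inside the wild type range. The means were 7.31 ± 0.37 and 6.87 ± 0.27 (SD, n = 4 each), a difference of -0.45 (SE 0.21; 95% interval -0.91 to 0.015) that did not pass (limma adjusted p = 0.392). It was -0.24 without background correction, -0.28 with wild type replicate 4 left out, and -0.22 with Bgn knockout replicate 2 left out too. Over the 20 alternatives its limma adjusted p ran from 0.324 to 1.0.

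None of the tested markers of cells that make Tgfb1 passed. Those of stellate cells and lymphocytes had values on both sides of 0, and those of platelets and macrophages only below 0. Stellate cell markers had 6 values above 0 and 4 below among 10 tested, and lymphocyte markers 2 above and 1 below among 3. The stellate marker Des, among those above 0, was brightest on the 3 arrays with muscle transcripts. Of the 6 platelet markers 2 were tested and 0 passed, with summed levels of 89 to 130 units in wild type and 68 to 87 in knockout livers. Both were dim, so these sums lie near background. Itga2b had -0.67, at 4.90 to 6.49 on the log2 scale and detected on 7 arrays. Pf4 had -0.12, at 4.96 to 5.62 and detected on 5. Ppbp, Gp9 and Itgb3 were detected on 3, 1 and 2 arrays. Of the 12 markers of Kupffer cells and macrophages 9 were tested, all 9 with values below 0 and 0 past the threshold, with sums of 3717 to 5160 in wild type and 2849 to 4386 in knockout livers; Cd5l was not detected. Their part in the Tgfb1 values was not tested.

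Tgfb3 (ILMN_2748966), a ligand of mesenchymal cells, was detected on 2 wild type arrays, replicates 2 and 4, and 2 knockout arrays, replicates 2 and 3. Its levels were 4.94, 5.23, 4.60 and 5.97 in wild type and 4.96, 5.72, 5.28 and 4.88 in knockout livers, so the groups overlapped throughout. The change was 0.029 (SE 0.29; 95% interval -0.61 to 0.67; limma adjusted p = 0.977). Its brightest arrays, wild type replicate 4 and Bgn knockout replicate 2, were also the brightest for the muscle gene Tnnt3, at 11.03 and 11.26. The other array with muscle transcripts, Bgn knockout replicate 1, had Tnnt3 at 8.79, but Tgfb3 was not detected there, at 4.96. Tgfb3 was detected on wild type replicate 2 and knockout replicate 3, where Tnnt3 was low, at 4.52 and 4.47. The part of muscle in the Tgfb3 values was not tested. When the 2 brightest Tgfb3 arrays were dropped, the probe no longer met the detection filter. The Tgfb2 probe (ILMN_1225196) was not detected on any array, at deposited intensities of 144 ± 5.64 in wild type and 152 ± 15.2 in knockout livers (SD, n = 4 each). How well this probe binds is not known, so its signal sets no bound on the transcript.

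The receptors were bright and did not pass the test. Tgfbr1, the type I kinase, was read best by ILMN_2602711, with 10.31, 10.23, 10.71 and 10.63 in wild type and 10.51, 10.43, 10.47 and 10.49 in knockout livers. All 4 knockout values lay between the wild type values, with an SD of 0.034 against 0.24. The change was -0.00030 (SE 0.12; 95% interval -0.27 to 0.27; limma adjusted p = 1.0), so a change of more than 1.21-fold in either direction lay outside its interval. The other 3 Tgfbr1 probes (ILMN_2980532, ILMN_2708965 and ILMN_1214505) were detected on 3, 0 and 0 arrays.

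Tgfbr2, the type II receptor that binds ligand first, gave 9.54, 9.56, 9.18 and 8.99 in wild type and 9.41, 9.32, 9.32 and 8.93 in knockout livers on probe ILMN_2760979. Replicate 4 was the lowest array in each group. The change was -0.074 (SE 0.16; 95% interval -0.42 to 0.27; limma adjusted p = 0.885). It was -0.31 without the 3 arrays with muscle transcripts (limma adjusted p = 0.952; 0.745 to 0.999 over the 20 alternatives). A second probe, ILMN_1242086, was detected on 1 array.

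Smad3, which carries the receptor signal to DNA, had levels of 7.31, 7.20, 7.18 and 7.32 in wild type and 6.93, 7.27, 6.89 and 6.93 in knockout livers (ILMN_2938893). Of the knockout arrays 3 lay below every wild type array, and the other, replicate 2, lay inside the wild type range. The means were 7.25 ± 0.073 and 7.0 ± 0.18 (SD, n = 4 each), and the change of -0.25 (SE 0.15; 95% interval -0.58 to 0.081) did not pass (limma adjusted p = 0.51). It was -0.13 when no background was subtracted.

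Skil, the SnoN repressor that binds Smad complexes and is itself induced by TGF-beta, was measured on ILMN_3126697 at 8.39, 8.31, 8.87 and 8.85 in wild type and 8.59, 8.59, 8.40 and 8.60 in knockout livers. The wild type arrays fell into a lower and an upper pair, and the knockout arrays lay between them. The change was -0.060 (SE 0.16; 95% interval -0.40 to 0.28; limma adjusted p = 0.91), and 0.0075 with wild type replicate 4 and knockout replicate 2 left out. The probe for the other annotated transcript, ILMN_2775130, was not detected on any array.

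Among the targets, Ccn2 and Id3 had the largest differences of the set, in opposite directions. Ccn2, connective tissue growth factor, a matricellular protein induced by TGF-beta and by the YAP pathway, had levels of 9.88, 10.11, 9.20 and 10.28 in wild type and 10.84, 10.23, 10.81 and 10.66 in knockout livers (ILMN_2909150). Of the knockout arrays 3 lay above every wild type array; the other, replicate 2, lay just below wild type replicate 4. The means were 9.87 ± 0.47 and 10.64 ± 0.28 (SD, n = 4 each), a change of 0.77 (SE 0.23; 1.71-fold, 95% interval 1.21 to 2.41 before adjustment). The unadjusted p was 0.00622, at or below which lay 417 of the 11494 probes, and the adjusted p was 0.171 in limma, so the difference did not pass.

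The 2 arrays that decide the overlap of Ccn2 are both among those with muscle transcripts. With both of them left out the change was 1.04 (limma adjusted p = 0.133), and with Bgn knockout replicate 1 left out as well it was 1.02 (adjusted p = 0.399). Without wild type replicate 3, the lowest array, it was 0.55 (adjusted p = 0.193). Over the 20 alternatives it stayed between 0.55 and 1.04, with limma adjusted p from 0.121 to 0.399, and passed under 0. Of the 13 markers of stellate cells, a source of Ccn2, 10 were tested and 0 passed, 6 with values above 0 and 4 below. Their sums were 14301 to 19959 in wild type and 15597 to 17148 in knockout livers, and Hhip and Hand2 were not detected. The values ran from -0.41 for Cygb (limma adjusted p = 0.396) to 1.05 for Rgs5 (limma adjusted p = 0.147), and Lum had 0.72 (limma adjusted p = 0.108). The part of stellate cells in the Ccn2 values was not tested.

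Id3, an inhibitor of basic helix-loop-helix factors that responds to BMP and TGF-beta Smads, had the widest spread of the set. Its levels were 7.99, 8.80, 9.46 and 8.80 in wild type and 8.72, 8.12, 7.90 and 7.13 in knockout livers (ILMN_2687169). The groups overlapped, since wild type replicate 1 lay below knockout replicates 1 and 2. The means were 8.76 ± 0.60 and 7.96 ± 0.66 (SD, n = 4 each), and the change of -0.80 (SE 0.38; 95% interval -1.66 to 0.072) did not pass (limma adjusted p = 0.419). Leaving out single arrays moved it from -0.52, without Bgn knockout replicate 4, to -1.06, without wild type replicate 1, array weights gave -0.50, and leaving out the 3 arrays with muscle transcripts gave -1.24. Over the 20 alternatives its limma adjusted p ran from 0.275 to 0.815. Of the 12 sinusoidal endothelial markers 11 were tested and 0 passed, 4 with values above 0 and 7 below, with sums of 7600 to 10744 in wild type and 8295 to 10760 in knockout livers; Kdr was not detected, and the values ran from -1.0 for Lyve1 (limma adjusted p = 0.104) to 0.43 for Fcgr2b (limma adjusted p = 0.371). Their part in the Id3 values was not tested.

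Tgfbi, a secreted adhesion protein named for its induction by TGF-beta, had 2 tested probes whose changes differed in sign and did not pass. ILMN_2834379 gave 9.92, 10.08, 10.29 and 10.23 in wild type and 10.43, 10.28, 9.99 and 10.46 in knockout livers, a change of 0.16 (SE 0.13; 95% interval -0.13 to 0.45; limma adjusted p = 0.645). ILMN_2727663 gave 7.19, 7.49, 7.65 and 7.41 in wild type and 7.49, 7.22, 7.05 and 7.67 in knockout livers, a change of -0.078 (SE 0.18; 95% interval -0.46 to 0.31; limma adjusted p = 0.891), or -0.039 with wild type replicate 4 and knockout replicate 2 left out. On both probes wild type replicate 3 was the highest wild type array, and knockout replicate 3 the lowest and replicate 4 the highest knockout array, so the probes kept much the same order of arrays within each group.

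**Figure D2:**
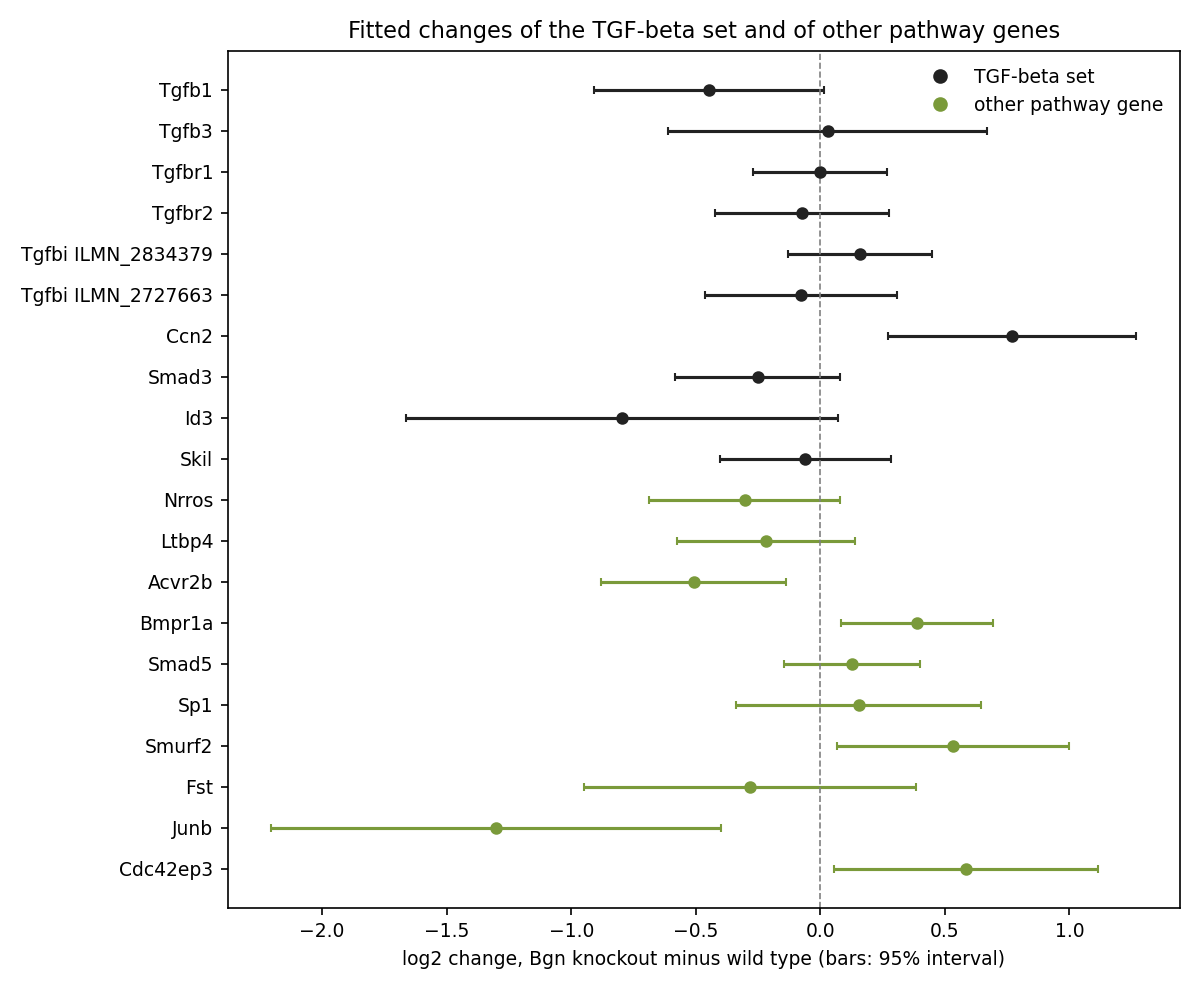
Log2 change, knockout minus wild type (x axis), with 95% intervals before adjustment for multiple tests, for the 10 tested probes of the set (black) and 10 other pathway genes picked by rule from the role lists (green). Of the black intervals only that of Ccn2, from 0.27 to 1.27, lies off 0, and neither Ccn2 nor any green gene passed the adjusted threshold. The green intervals of Acvr2b, Bmpr1a, Smurf2, Junb and Cdc42ep3 lie off 0 too. Green genes were picked for the smallest unadjusted p of their lists, so the colours cannot be compared as like with like.

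To show the DNA ahead of the targets, the 250 bases before the transcription start are printed for Id3, the target of the set with the lowest value, and for Tgfbi, the target with 2 probes, from RefSeq (GRCm38.p6). The promoter table held 7 of the 10 genes, without Tgfb3, Ccn2 and Skil. Capitals mark 3 short motifs searched on both strands. CAGAC, which reads GTCTG on the other strand, is the core of the Smad3 box. GGAATG, which reads as CATTCC on the other strand, is bound by TEAD factors, the partners of YAP. The last is GGCGCC, its own reverse complement, a GC element of BMP-responsive genes. No motif overlapped another. The Id3 window lies at chr4:136143572-136143821 and the Tgfbi window at chr13:56609336-56609585, both on the plus strand.
Id3: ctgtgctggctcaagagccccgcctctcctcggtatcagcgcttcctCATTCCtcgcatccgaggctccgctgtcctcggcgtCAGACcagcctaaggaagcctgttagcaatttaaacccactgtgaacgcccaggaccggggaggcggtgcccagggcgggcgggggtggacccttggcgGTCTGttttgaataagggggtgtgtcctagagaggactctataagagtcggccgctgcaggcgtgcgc
Tgfbi: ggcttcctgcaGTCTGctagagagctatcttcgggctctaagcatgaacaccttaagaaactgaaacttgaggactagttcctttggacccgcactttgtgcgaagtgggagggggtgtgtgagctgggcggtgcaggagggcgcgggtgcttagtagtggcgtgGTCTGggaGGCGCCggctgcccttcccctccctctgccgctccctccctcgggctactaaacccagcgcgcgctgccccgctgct

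Counted from the start site, the Id3 window held CAGAC or its complement with first bases at -167 and -68 and CATTCC at -203, and the Tgfbi window held GTCTG at -239 and -85 and GGCGCC at -77. Over the 8 windows of the 7 genes (Tgfbr1 has 2), CAGAC was in 5, GGAATG in 1 and GGCGCC in 2. Among all 32851 windows of that length in the table, 42.2%, 12.6% and 9.59% held them. These matches are descriptions of the letters and say nothing of binding.

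The wider pathway was described with 96 genes listed by role, of which 57 had a tested probe, the brightest standing for the gene. In limma 0 of the 57 rose and 0 fell, against 1.2% of all 8105 tested genes, and 6 had an unadjusted p under 0.05, against 13.5%. The groups were free of overlap for 3 of the 57, against 8.66% of all tested genes. The median log2 change of the 57 was 0.016, beside -0.0030 over all tested genes.

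Of 13 tested genes for ligands and their activation, 0 passed and 0 had an unadjusted p under 0.05. Nrros, which anchors latent TGF-beta on macrophages, had -0.30 (SE 0.18; limma adjusted p = 0.488), with levels of 6.82 to 7.04 in wild type and 6.21 to 6.78 in knockout livers that did not overlap; it was -0.13 with wild type replicate 4 and Bgn knockout replicate 2 left out. Ltbp4, a latent TGF-beta binding protein of the matrix, had -0.22 (SE 0.16; limma adjusted p = 0.605), and -0.095 with wild type replicate 2 left out. Of 7 receptors and co-receptors, 0 passed and 2 had an unadjusted p under 0.05. Acvr2b, a type II activin receptor, had -0.51 (SE 0.17; limma adjusted p = 0.223), at 8.40 to 9.16 in wild type and 8.02 to 8.34 in knockout livers. Bmpr1a, a type I BMP receptor, had 0.39 (SE 0.14; limma adjusted p = 0.258), at 7.29 to 7.51 and 7.63 to 7.96, and its second tested probe had 0.17; without background correction the brighter probe had 0.24. Nrros, Acvr2b and Bmpr1a were the 3 genes whose groups did not overlap.

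Of 8 Smads and partners, 0 passed and 0 had an unadjusted p under 0.05; the BMP Smad Smad5 had 0.13 (SE 0.13), and 0.047 with the 3 arrays with muscle transcripts left out. The transcription factor Sp1 had 0.15 (SE 0.23), and 0.043 without background correction. Of 11 inhibitors, 0 passed and 1 had an unadjusted p under 0.05: Smurf2, a ubiquitin ligase that marks receptors and Smads for breakdown, had 0.53 (SE 0.21; limma adjusted p = 0.314), and 0.18 without background correction. Fst, the activin-binding protein follistatin, had -0.28 (SE 0.31), and 0.0060 with wild type replicate 4 left out. Of 18 targets, 0 passed and 3 had an unadjusted p under 0.05, Ccn2 among them. Cdc42ep3, a Cdc42 effector, had 0.58 (SE 0.24; limma adjusted p = 0.328), and 0.20 without background correction. Junb, an AP-1 subunit and immediate early gene, had the largest value of the lists, -1.30 (SE 0.40; limma adjusted p = 0.211).

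Junb was at 8.76, 8.21, 8.98 and 9.26 in wild type and 6.86, 7.33, 7.13 and 8.68 in knockout livers. Knockout replicate 4 alone lay inside the wild type range. Without that array the change was -1.70 and passed (limma adjusted p = 0.00401), the only gene of the lists that passed under any of the alternatives run. Over the 20 alternatives it ran from -1.70 to -0.75, the latter with the 3 arrays with muscle transcripts left out, and its limma adjusted p from 0.00401 to 0.967.

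Array by array, the 3 genes with the largest SD among those of the set detected on all 8 arrays each had close companions among all tested probes. Likeness was measured as Pearson's r of log2 intensity over the 8 arrays, which includes the difference between groups, and is given as a description of 8 points that share normalization. Id3 (SD 0.72) was most like Tbx3 (r = 0.967) and Sp5 (r = 0.958), both transcription factors. Tbx3 had a change of -0.54 (SE 0.39) and Sp5 of -0.87 (SE 0.37), neither past the threshold (limma adjusted p = 0.588 and 0.347). Ccn2 (SD 0.55) was most like Lrp6, a Wnt co-receptor (r = 0.955), and Trib2, a pseudokinase (r = 0.951), with changes of 0.32 (SE 0.18) and 0.40 (SE 0.20). Tgfb1 (SD 0.38) was most like Rbak, a zinc finger gene (r = 0.989), and Coa7, a cytochrome oxidase assembly factor (r = 0.974), with changes of -0.48 (SE 0.20) and -0.71 (SE 0.26); none of these 4 passed (limma adjusted p = 0.473, 0.413, 0.315 and 0.27). Id3, Tbx3 and Sp5 were all lowest on Bgn knockout replicate 4 and highest on wild type replicate 3. Ccn2, Lrp6 and Trib2 were all lowest on wild type replicate 3, and Tgfb1, Rbak and Coa7 all highest on wild type replicate 4. Companions were picked over these same arrays, so shared lowest or highest arrays follow from the choice and are no separate result.

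**Figure D3:**
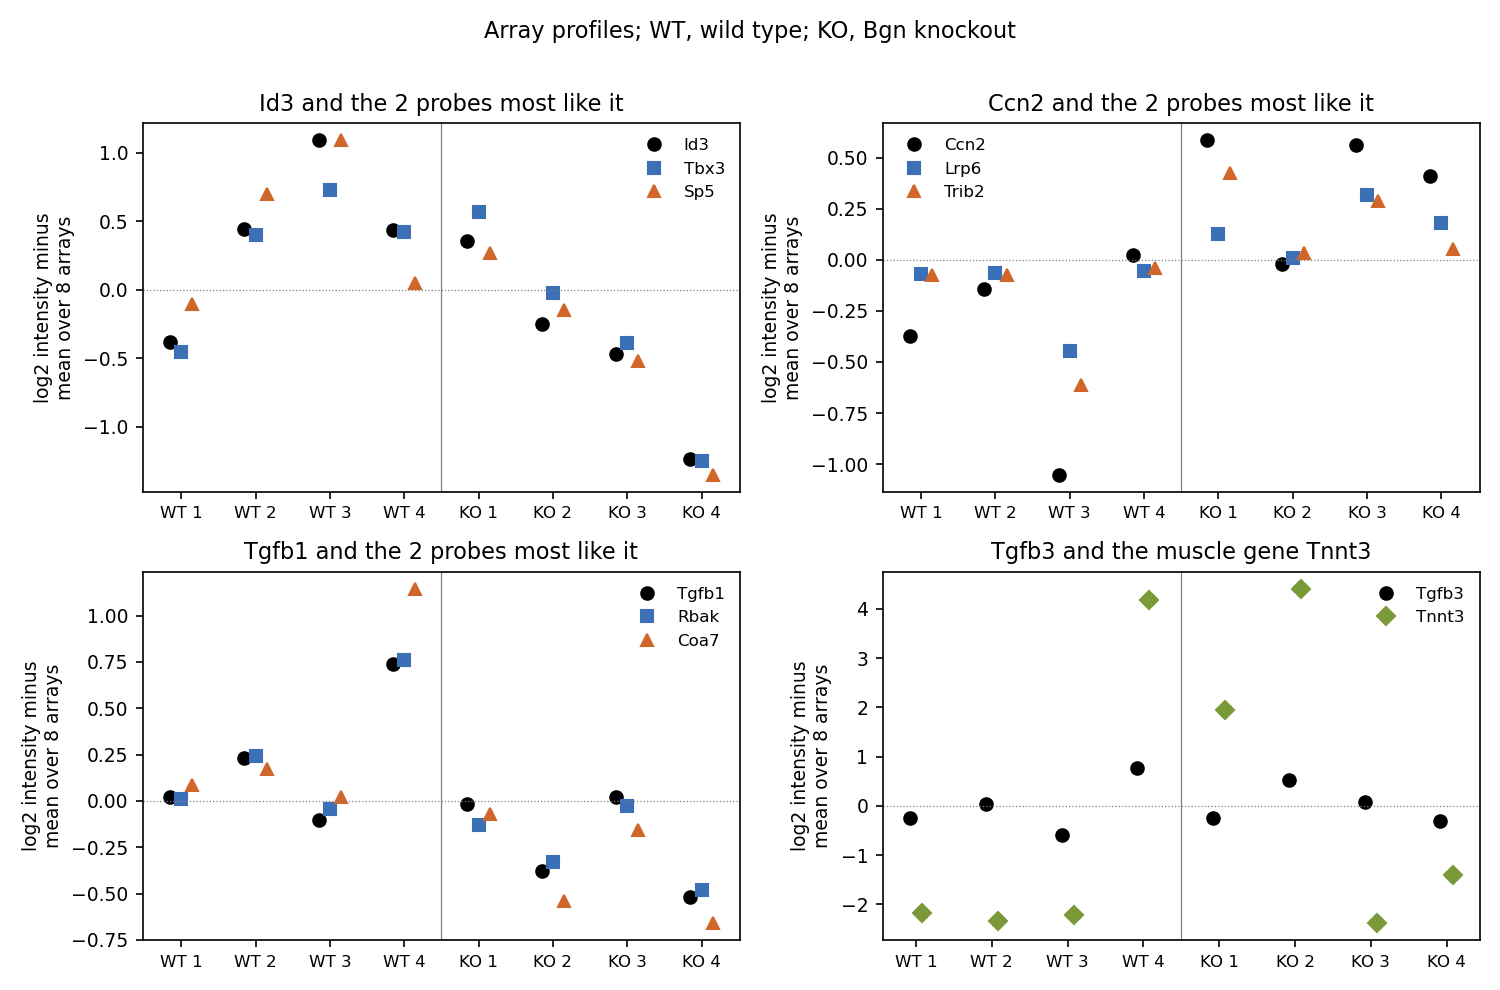
Log2 intensity minus the probe's mean over 8 arrays (y axis) on each wild type (WT) and knockout (KO) array, for Id3, Ccn2 and Tgfb1 with the 2 probes most like each, and for Tgfb3 with the muscle gene Tnnt3 on a wider axis. Id3, Tbx3 and Sp5 share their lowest array, KO 4, companions having been picked for likeness over these same arrays. The brightest Tgfb3 arrays, WT 4 and KO 2, are also the brightest for Tnnt3, whereas KO 1 lies above the mean for Tnnt3 and below it for Tgfb3.

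**Figure D4:**
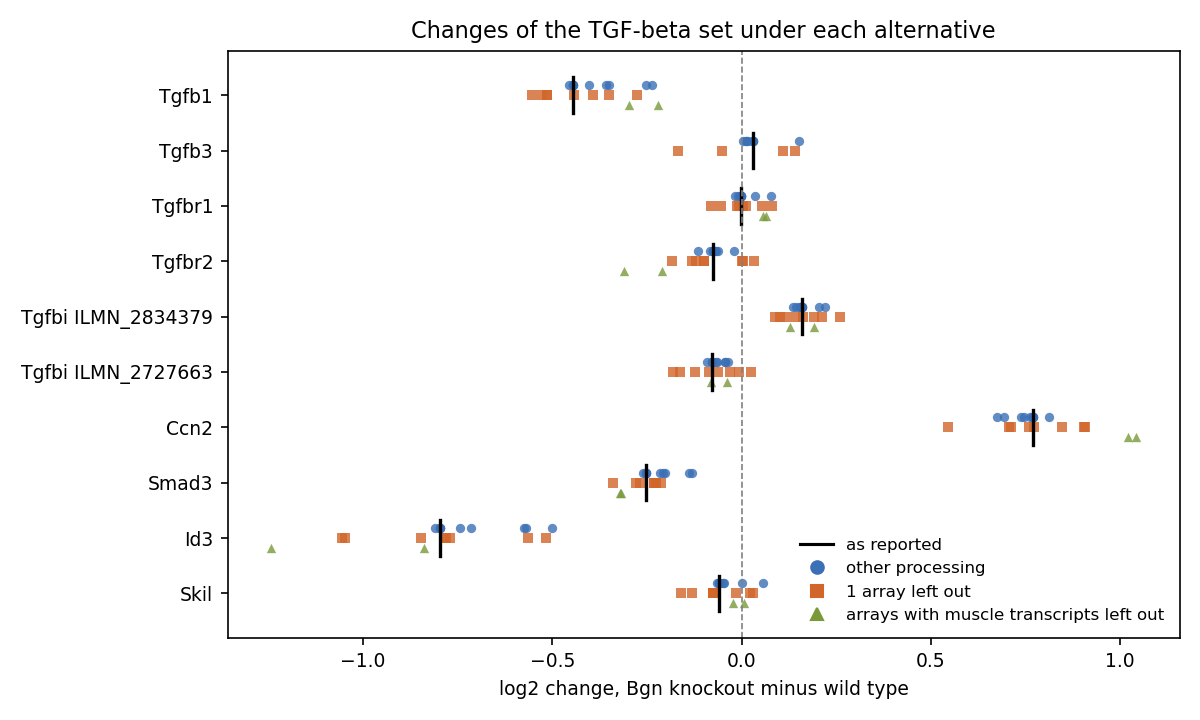
Log2 change, knockout minus wild type (x axis), of the 10 tested probes as reported (black lines) and under each alternative processing (blue), with 1 array left out (orange) and without the arrays with muscle transcripts (green). Ccn2 stayed above 0, and Tgfb1, Smad3 and Id3 below 0, under every alternative drawn, whereas the points of Tgfb3, Tgfbr1, Tgfbr2, Skil and Tgfbi probe ILMN_2727663 lay on both sides of 0.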

How the data were processed

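Per the labels' protocols, RNA was column-purified and biotin-labelled. The deposited intensity values are linear, without background subtraction (lowest 109) or normalization, beside a deposited detection p-value. The authors' own normalized intensity was deposited too (column medians 155.9 to 156.6), by a method the sources do not state. Per the submitters' processing notes, lumi 2.10.0 with R 2.15.0 was used, in a role that is not stated. Columns were matched to samples by description.

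In limma 3.58.1 (R 4.3.3), neqc applied normexp (offset 16), quantile normalization and log2. Probes with detection p under 0.05 on at least 4 arrays were fitted (lmFit; eBayes with trend and robust variance), and p-values were adjusted over all 11494. The fit was tested on data simulated with each probe's own mean and spread. Of probes given a log2 change of 0.5, 17.9% passed the threshold, with 65.7% at 1 and 100% at 2. False calls made up 6.15% of all calls. A probe that did not pass may therefore still have changed. Precision is limited by having 4 arrays per group.

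The genes, lists and alternatives were chosen with earlier results of these data known, and the motifs after values were seen. Named pathway genes are, per role list and outside the set, the 2 with the smallest p on the brightest probe, since none passed; companions were sought for the 3 genes of largest SD detected on all arrays. Symbols come from the platform annotation, matched to GRCm38.p6, which was used for names only beside the printed promoters. Matplotlib 3.10.9 drew the figures. Replicate numbers did not pair the arrays.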

Additional observations from a re-analysis of the deposited data

Results flagged for a closer look

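Dixon's test was applied to each group's 4 arrays for Bgn, the set's tested probes, their companions and the pathway genes named by rule. Other named genes were not checked. An extreme array was picked out when its distance from the closest other array made up too much of the whole spread. The limit was the 95% critical value, which chance passes in about 1 of 20 groups. Of 54 groups checked, 8 held such an array. The groups are not independent, since some genes were named for their likeness to Ccn2, Id3 or Tgfb1 over the same arrays, so no chance count is given.

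In the TGF-beta set, the log2 intensity of Smad3 on Bgn knockout replicate 2 was 7.27, with the others at 6.89 to 6.93. That of Skil on Bgn knockout replicate 3 was 8.40, with the others at 8.59 to 8.60. Among the companions of Ccn2, Lrp6 was 5.41 (others 5.78 to 5.80) and Trib2 was 5.42 (others 5.96 to 6.00), both on wild type replicate 3. That array was also the lowest for Ccn2, and the companions were picked for likeness to Ccn2 over these same arrays. Coa7 was 7.36 (others 6.24 to 6.39) and Nrros 7.04 (others 6.82 to 6.85) on wild type replicate 4. Bgn knockout replicate 4 stood apart for Fst, at 4.87 (others 5.59 to 5.67), and for Cdc42ep3, at 5.61 (others 6.35 to 6.47).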

How the results depend on the processing

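No probe of the set passed under any of the 20 alternatives. The value kept its sign in all of them for Tgfb1, Ccn2, Smad3, Id3 and Tgfbi probe ILMN_2834379, and changed sign, unpassed, in 2 of 13 for Tgfb3, 8 of 20 for Tgfbr1, 3 for Tgfbr2, 5 for Skil and 1 for Tgfbi probe ILMN_2727663. The set's median lay between -0.099 and -0.0058. Over all tested probes the 127 calls became 197 with array weights, 48 and 25 with the 2 and the 3 arrays with muscle transcripts left out, and 59 to 121 with single arrays left out (wild type 1 gave 62 and 3 gave 67; knockout 1 gave 81, 2 gave 59 and 3 gave 68); the cause was not tested. Pathway genes past the threshold numbered 0 to 1 with single arrays left out, the 1 being Junb without Bgn knockout replicate 4. Bgn passed throughout. With the replicate number as a block, 64 probes passed, and the set and lists again gave 0. Same-numbered arrays deviated with r of 0.057, -0.059, -0.30 and -0.12, so the numbers were not taken as pairs. No array correlated best with the array of its own number. Probes near background, such as those of Tgfb2 and Tgfb3, limit what can be measured.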

Other observations

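Some genes outside the naming rule were chosen after their values were seen. Of the other Id genes, which encode helix-loop-helix inhibitors like Id3, Id1 and Id2 had values below 0 without passing, and Id4 was not detected on any array. Id1 had -0.62 (SE 0.42; limma adjusted p = 0.567) and Id2 -0.27 (SE 0.31) on its brighter probe and -0.33 (SE 0.25) on the other. Smad2 had 0.011 (SE 0.15) and Smad4, the shared partner, -0.057 (SE 0.10). Ccn1, a close relative of Ccn2, had 0.077 (SE 0.23) on its brighter probe and -0.50 (SE 0.20; limma adjusted p = 0.315) on another, where the groups did not overlap. Thbs1, an activator of latent TGF-beta, the targets Col1a2 and Tagln, and the feedback genes Bambi and Pmepa1 were not detected on any array.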
